A study of Mus musculus with 2 samples.

Results

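Tumor macrophages of a resident type, marked by UMIs of Cd163, Lyve1, Cbr2, Gja1 and Ednrb, were examined among GR-1+ cells of 4T1 mammary tumors of mice given anti-PD1. A UMI is a molecular tag that counts 1 captured transcript. A barcode was macrophage-gated when it held at least 5 UMIs of Apoe, C1qa, Lyz2 and Csf1r together and more of these than of the neutrophil genes S100a8, S100a9, G0s2 and Csf3r, and a gated barcode was a member when at least 2 of the 5 marker genes had a UMI. The library labelled 4T1p held 26 members and the one labelled 4T1m held 58, together 84 of 1691 macrophage-gated barcodes and of 3220 barcodes kept by the quality limits (250 to 5000 genes, at most 27000 UMIs and an upper limit on the mitochondrial share), of 4390 in the files.

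Both libraries came from female BALB/c mice, aged 8 to 10 weeks when tumor cells were injected into the mammary fat pad. Anti-PD1 antibody (clone RMP1-14) was later given for 2 weeks in both, so no untreated tumor was compared. The 4T1p tumor was grown from parental 4T1 cells, a mouse mammary carcinoma line, and is the anti-PD1-resistant one. The 4T1m tumor was grown from a pool of many clones of 4T1 cells mutagenized with MNNG, an alkylating agent, and is the responsive one. Tumors were dissociated with collagenase IV and DNase, and cells that bound the GR-1 antibody, which recognizes Ly6G and Ly6C, were drawn out with magnetic beads before droplet capture of transcript 3′ ends. How many animals gave each library is not stated in the sources used here. With 1 library per condition no test between conditions was possible, and no p-value is given. The 95% intervals (exact Poisson for levels, exact binomial for ratios and for shares of cells) cover counting error only.

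Resident tissue macrophages are seeded before birth or renewed slowly from monocytes, and many of them lie along blood vessels. CD163 is the scavenger receptor for haptoglobin-hemoglobin complexes, LYVE1 binds hyaluronan, and CBR2 is a carbonyl reductase. EDNRB, the endothelin B receptor, and GJA1, the gap junction protein connexin 43, are also made by endothelial, stromal and glial cells. Macrophages with the first 3 genes are known in mammary, skin, heart and lung tissue for uptake of dead cells, hemoglobin and lipoproteins, and for secretion of chemokines, complement and growth factors. Monocyte-derived tumor macrophages are known by contrast for MHC class II genes, inflammatory cytokines and matrix proteases.

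The genes that chose the cells lie on 5 chromosomes. In GRCm38 coordinates Cd163 (ENSMUSG00000008845) is a protein-coding gene on the plus strand at chr6:124304656-124330527, Lyve1 on the minus strand at chr7:110850607-110863239, Cbr2 on the minus strand at chr11:120729489-120732114, Gja1 on the plus strand at chr10:56377330-56402513 and Ednrb on the minus strand at chr14:103814625-103844402. The sequence around the transcript start is printed for the 4 of these genes that matched the RefSeq promoter table (GRCm38.p6), since these genes define the cells and Maf, a transcription factor of resident macrophages, is among the genes that were higher in them. Windows run 5′ to 3′ on the strand of the gene, at chr6:124304401-124304700 (plus) for Cd163, chr11:120731972-120732271 (minus) for Cbr2, chr10:56377050-56377349 (plus) for Gja1 and chr14:103843652-103843951 (minus) for Ednrb. Capitals mark matches, on either strand, to the letters TGCTGA (MAF), TGANTCA (AP-1), GAGGAAGT (PU.1, the factor that specifies myeloid cells) or AGGTCA (nuclear receptors of the LXR type).
Cd163: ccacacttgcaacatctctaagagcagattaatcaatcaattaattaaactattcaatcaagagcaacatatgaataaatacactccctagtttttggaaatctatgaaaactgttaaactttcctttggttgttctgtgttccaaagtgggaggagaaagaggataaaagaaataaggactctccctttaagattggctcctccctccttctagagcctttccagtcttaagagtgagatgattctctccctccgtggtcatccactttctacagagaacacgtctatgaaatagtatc
Cbr2: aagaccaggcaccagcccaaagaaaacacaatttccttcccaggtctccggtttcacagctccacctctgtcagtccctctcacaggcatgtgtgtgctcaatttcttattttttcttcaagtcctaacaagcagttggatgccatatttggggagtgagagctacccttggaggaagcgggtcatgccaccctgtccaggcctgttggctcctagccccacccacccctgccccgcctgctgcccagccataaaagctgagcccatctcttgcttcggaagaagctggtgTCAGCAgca
Gja1: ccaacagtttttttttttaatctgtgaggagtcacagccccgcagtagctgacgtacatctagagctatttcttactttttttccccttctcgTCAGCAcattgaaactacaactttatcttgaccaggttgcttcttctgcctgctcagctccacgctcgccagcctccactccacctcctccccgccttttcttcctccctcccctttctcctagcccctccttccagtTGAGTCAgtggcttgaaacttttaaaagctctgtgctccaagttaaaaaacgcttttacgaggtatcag
Ednrb: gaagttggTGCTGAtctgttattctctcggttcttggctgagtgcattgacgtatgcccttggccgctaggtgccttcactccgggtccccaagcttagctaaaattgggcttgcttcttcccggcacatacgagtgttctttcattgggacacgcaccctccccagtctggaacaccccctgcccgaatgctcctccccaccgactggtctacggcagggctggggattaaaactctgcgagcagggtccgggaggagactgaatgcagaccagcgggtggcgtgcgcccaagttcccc
The Cbr2, Gja1 and Ednrb windows each held 1 MAF match, Gja1 held 1 AP-1 match (TGAGTCA), and the Cd163 window held none of the 4 motifs. Of all 32851 promoters of this length, 19.5% held the MAF letters, 7.81% AP-1, 3.20% PU.1 and 16.3% AGGTCA, so a match to a motif this short is a description of the letters and not a binding site.

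The library labelled 4T1p held 9021132 UMIs in 1641 barcodes (median 2066 per barcode) and the library labelled 4T1m held 14840190 in 2749 (median 2763). Each median is the one that the study's methods attach to the other condition. Whether the libraries carry each other's labels was not settled here, so each library goes by its label, and every direction between libraries rests on the labels and would turn round with them. The libraries shared 0 cell barcodes. Members were deeper than the rest of the gate: their median was 10046.5 UMIs (range 1000 to 24897) against 1754 in the other 750 gated barcodes of 4T1p, and 9196.5 (1351 to 25875) against 4447 in the other 857 of 4T1m. Depth matters here because a rule that asks for 2 detected genes finds more members among deeper barcodes. In all, the members supplied 285723 UMIs in 4T1p and 576246 in 4T1m, so a gene with 0 UMIs could still have had up to 10.5 or 5.21 CPM (UMIs of the gene per 1000000 UMIs of the group), the level of 3 UMIs.

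Members made up 3.35% (2.20 to 4.87%) of gated barcodes in 4T1p and 6.34% (4.85 to 8.12%) in 4T1m. Among gated barcodes with at least 5000 UMIs, a limit added after seeing the data, the shares were 8.57% (21 of 245, 5.38 to 12.8%) and 8.73% (40 of 458, 6.31 to 11.7%). The difference over all gated barcodes was thus not seen among the deep ones. As shares of all kept barcodes they were 2.30% (1.51 to 3.36%) and 2.77% (2.11 to 3.57%), with intervals that overlapped. Each share is of GR-1-selected cells, so it is set by the selection as well as by the tumor.

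**Figure D1:**
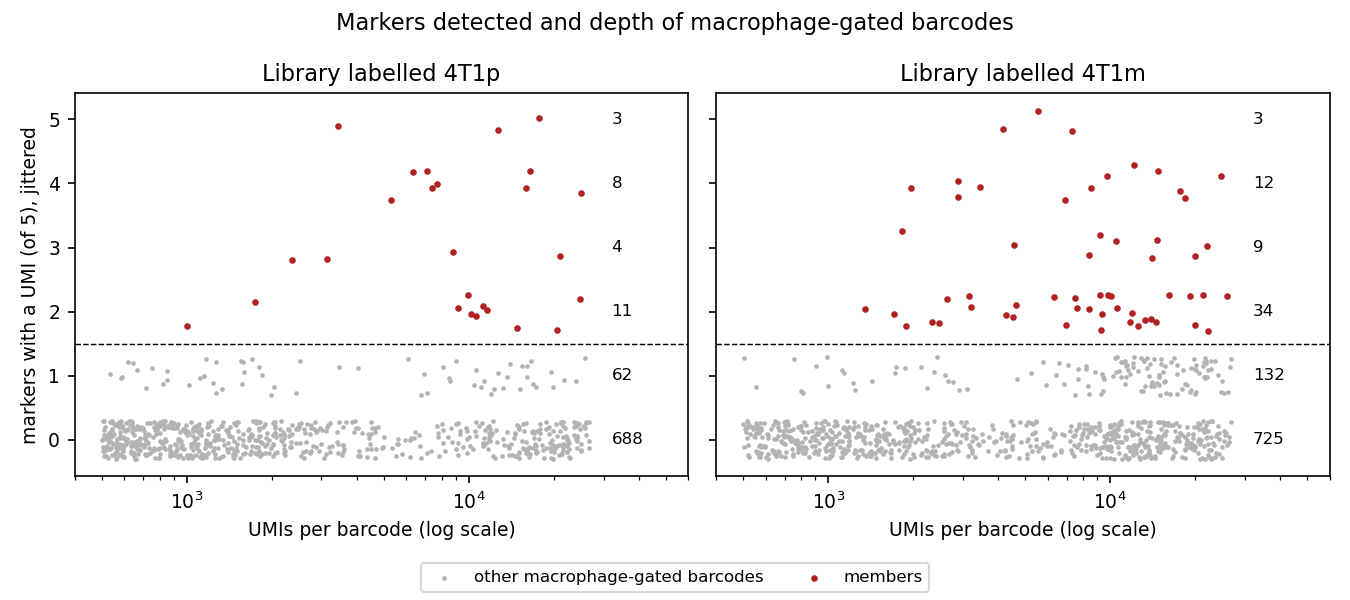
Number of the 5 markers with a UMI (vertical axis) against UMIs per barcode (horizontal log axis) for each macrophage-gated barcode of the 2 libraries, with the number of barcodes at each level printed at the right. The members (2 or more markers) are deeper as a group than the 688 and 725 barcodes with none of the markers.

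The number of markers per member differed between the libraries. In 4T1p, 11 members had exactly 2 markers, 4 had 3, 8 had 4 and 3 had all 5, and in 4T1m these numbers were 34, 9, 12 and 3. Just outside the rule, 62 gated barcodes of 4T1p and 132 of 4T1m had exactly 1 marker, with median depths of 3760 and 12878.5 UMIs. Just inside it, members with exactly 2 markers had median depths of 10621 and 9215 UMIs, and 4 and 7 of them rested on a single UMI of each gene. The edge of the group is therefore soft, and 45 of the 84 members lie at it.

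Cd163 had a UMI in 20 of 26 members of 4T1p, with 0 to 66 UMIs per member (median 4), and in 28 of 58 of 4T1m, with 0 to 81 (median 0). Its level was 1078 CPM in 4T1p and 399 CPM in 4T1m, against 1.89 and 3.52 CPM in the other gated barcodes. The 4T1m over 4T1p log2 ratio in members was -1.43 (-1.69 to -1.18), while in the others it was 0.90. The levels of all 5 markers, in members and in the others alike, are set in part by the rule, since a barcode with 2 of them became a member. Cbr2, the most widely detected marker in 4T1p, had a UMI in 22 and 42 members (84.6% and 72.4%) at 511 and 262 CPM, a log2 ratio of -0.96 (-1.30 to -0.63). Lyve1 was the marker of fewest members, 10 and 21 (38.5% and 36.2%), at 238 and 210 CPM, a log2 ratio of -0.18 (-0.62 to 0.27) that the counts could not tell from 0. Cbr2 had a UMI in 10 of the 10 Lyve1 members of 4T1p and in 17 of the 21 of 4T1m, while 2 and 4 barcodes with Lyve1 and no second marker stayed outside the group by the rule.

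Ednrb ran the other way, with a UMI in 16 members of 4T1p (61.5%) and 44 of 4T1m (75.9%), at 248.5 and 383.5 CPM, a log2 ratio of 0.63 (0.23 to 1.03). Gja1 had a UMI in 13 and 23 members (50% and 39.7%) at 280.0 and 107.6 CPM. Its log2 ratio of -1.38 (-1.88 to -0.88) leaned on 1 member that held 52.5% of the Gja1 UMIs of 4T1p, and was -0.74 without the top member of each library. Markers also occurred outside the group, with Cbr2 in 4.67% and 3.50% of other gated barcodes. Among barcodes with the Mmp12 and Il7r macrophage genes defined further on, 13.6% and 21.3% had an Ednrb UMI and 1.70% and 3.70% a Gja1 UMI, against 2.00% and 6.88% (Ednrb) and 0.267% and 2.45% (Gja1) of all other gated barcodes.

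Free RNA in the droplets can put a UMI of any gene into any barcode, so the same shares were taken in neutrophil-gated barcodes, of which there were 249 (median 2779 UMIs) and 1025 (median 2534). There Cd163 was at 0 and 0.293%, Lyve1 at 0 and 0.488%, Cbr2 at 0.803 and 0.195%, Gja1 at 0.402 and 0.195% and Ednrb at 0.402 and 0.390%. At an equal depth of 1000 UMIs drawn from each barcode, members still had Cd163 in 50% and 20.7%, Cbr2 in 34.6% and 31.0%, Lyve1 in 19.2% and 19.0%, Ednrb in 15.4% and 39.7% and Gja1 in 11.54% and 3.45%. Since members were chosen by UMIs of these genes, their distance from the background is set by the rule and shows nothing beyond it.

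Markers of other cells were then counted. Genes of fibroblasts gave 1 and 3 UMIs in all members of 4T1p and 4T1m, pericyte genes 0 and 3, epithelial and tumor genes 1 and 1, T cell genes 0 and 3, and adipocyte, B cell and mast cell genes 0 in both. Dendritic cell genes gave 12 and 8 UMIs, all of Cd209a, with Flt3, Zbtb46, Xcr1, Clec9a and Ccr7 at 0. Of the lymphatic endothelial genes, which share Lyve1 with these macrophages, Prox1, Ccl21a and Mmrn1 were at 0 and only Pdpn, which macrophages also make, was frequent (28 and 100 UMIs). The leukocyte gene Ptprc had a UMI in 21 members of 4T1p (80.8%) and 51 of 4T1m (87.9%). The 6 classical monocyte genes, in contrast, gave 231 and 635 UMIs (808.5 and 1102 CPM), above the 650.7 and 827.1 CPM of the other gated barcodes. Ccr2 was the most abundant of them, with 127 and 350 UMIs. What part cells of monocyte origin had in the results was not tested.

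An exception was 1 member of 4T1p whose genes went against the label. Its macrophage UMIs were 7, all of Apoe, it had 0 of Ptprc, and it held UMIs of 6 of 6 blood endothelial markers along with 212 of Fabp4, 184 of Igfbp7, 85 of Sparc, 63 of Cxcl12 and 50 of Plvap, among 11547 UMIs. It entered the group through 6 UMIs of Gja1 and 2 of Ednrb. Values below that rest on it are also given without it. No other member had more than 2 of the 6 endothelial markers.

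Neutrophil transcripts were the other admixture, and they differed between the libraries. The 4 neutrophil genes of the gate summed to 81 UMIs over the 4T1p members (median 2, highest 18) and to 1534 over the 4T1m members (median 3, highest 852), and they passed 10% of the macrophage UMIs in 0 and 10 members. The highest was a 4T1m barcode with 852 neutrophil and 869 macrophage UMIs and 2 of the markers. Neutrophil genes outside the gate gave 7 and 143 UMIs, of which Retnlg gave 3 and 50. Whether such barcodes hold a macrophage with a neutrophil was not tested beyond a doublet score. The 13 and 44 barcodes with the highest scores held 0 members, and so not the barcode with 852 neutrophil UMIs. Those numbers were preset from an assumed doublet rate of 1% per 1000 barcodes, so they do not show that members are free of doublets.

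The GR-1 selection should favour Ly6G or Ly6C. In members Ly6g had 0 and 4 UMIs, and Ly6c2, which encodes the Ly6C of classical monocytes, had 9 and 18 UMIs in 1 and 3 cells. Ccr2, the chemokine receptor that brings monocytes into tissue, had 127 and 350 UMIs in 14 and 40 cells. Members thus had little transcript of the selected epitopes, and most of them carried the monocyte receptor. What bound them to the beads was not measured here.

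Levels in the members were set beside those in the other gated barcodes of the same library. The rule chose the members within this contrast, so its ratios are a description with no test. A gene counts as higher or lower when the CPM ratio passed 2-fold in the same direction in both libraries, among 8722 genes with at least 20 UMIs in each library. Of these, 261 (2.99%) were higher and 223 (2.56%) lower in members. That split, 53.9% higher, depended on the scaling: with TMM factors, which moved the median gene by -0.30 (4T1p) and -0.11 (4T1m) on the log2 scale, 162 were higher and 341 lower (32.2%), and with mitochondrial and ribosomal genes taken out of the total 198 and 276 (41.8%). Of the 261 higher genes 184 had both intervals off 0, and of the 223 lower genes 56 did, so the higher genes are the better counted.

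Resident macrophage genes outside the rule went with the markers. Of 23 listed, 14 were measured, 10 were higher and 0 lower, with median log2 ratios of 2.54 in 4T1p and 2.14 in 4T1m, beside 0.19 and 0.03 over all tested genes. Mrc1, the mannose receptor CD206, had a UMI in 22 of 26 and 52 of 58 members, with 0 to 90 (median 9) and 0 to 113 (median 8) UMIs each. Its level was 1918 and 1512 CPM against 251 and 428 CPM in the others, log2 ratios of 2.93 (2.78 to 3.08) and 1.82 (1.71 to 1.93). F13a1, a clotting factor XIII subunit made by perivascular macrophages and monocytes, was detected in 23 and in all 58 members, at 843.5 and 1428 CPM against 157.0 and 329.7 CPM. Folr2, the folate receptor beta of breast tissue macrophages, was at 318.5 and 272.5 CPM against 46.0 and 34.3 CPM, log2 ratios of 2.79 (2.42 to 3.16) and 2.99 (2.69 to 3.29).

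Other genes of the list were also higher. Gas6, the ligand that bridges dying cells to the receptors AXL and MERTK, was at 332.5 and 256.8 CPM with log2 ratios of 2.65 and 2.40. Igf1 (growth factor) had ratios of 2.95 and 2.56, the selenium transporter Sepp1 2.22 and 2.10, and the lectins Clec10a and Fcna 3.03 and 2.94, and 3.06 and 2.17. Pf4, the chemokine CXCL4, was at 938 and 2384 CPM, with ratios of 1.11 and 1.79. Genes of liver and serous cavity macrophages were rare: Cd5l, Clec4f, Hpgd and Cd209b had 0 UMIs in members, Timd4 1 and 3, and Vsig4, the complement receptor CRIg, 2 and 37 (in 1 and 5 cells). Genes of liver macrophages were thus at or near 0 in members at this depth, Vsig4 in 4T1m apart.

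**Figure D2:**
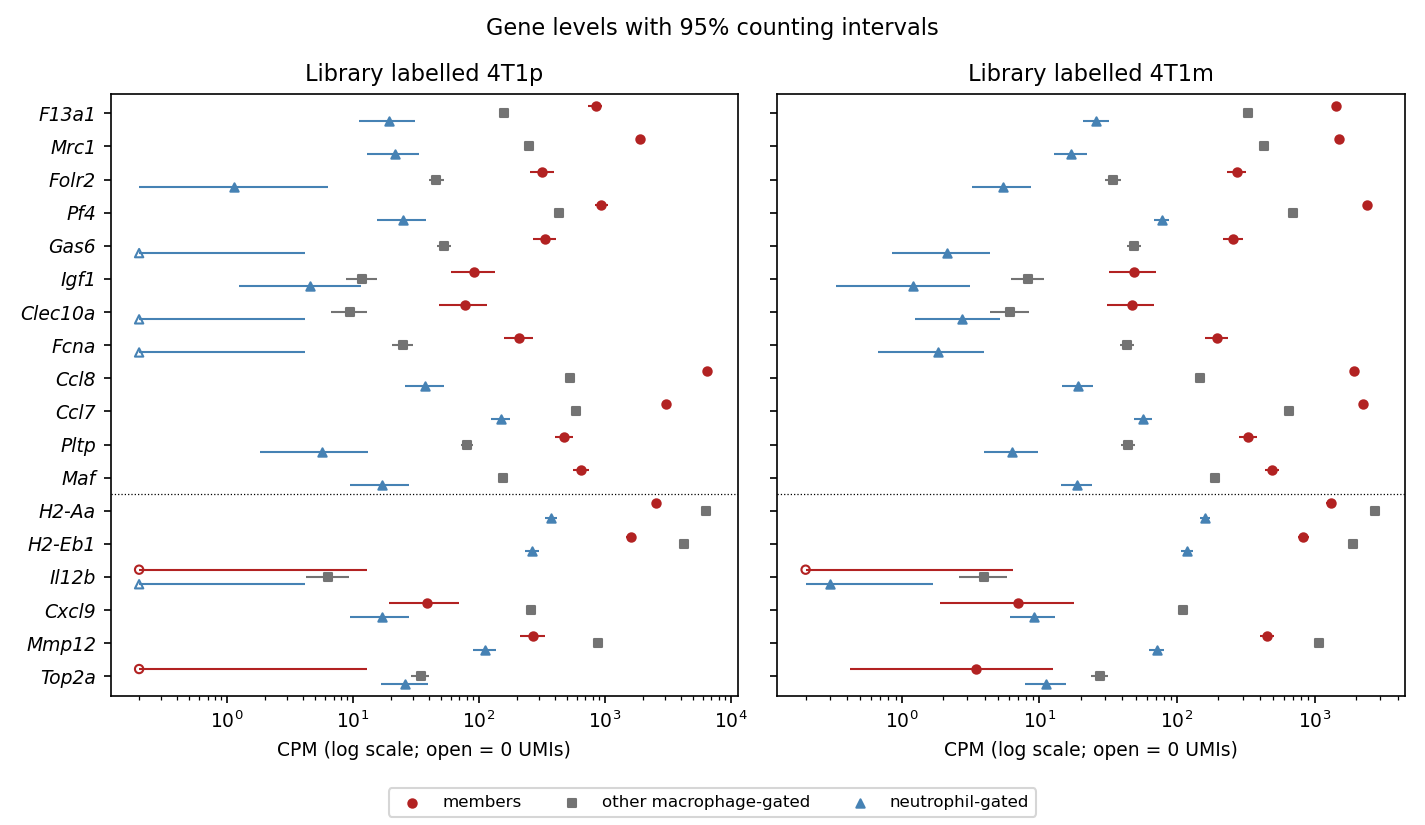
Level (CPM, log axis) of 18 genes in members, in other macrophage-gated barcodes and in neutrophil-gated barcodes of each library, with bars for 95% counting intervals and open symbols at the floor for 0 UMIs. Mrc1 reads 1918 and 1512 CPM in members against 251 and 428 CPM in the others, and H2-Aa 2541 and 1307 CPM against 6322 and 2760 CPM.

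Among the other chemokines 5 of 13 measured were higher and 3 lower. Ccl8, a ligand of CCR2 and CCR8, had the largest ratios of the higher ones: 6503 and 1945 CPM in members against 527 and 146.5 CPM in the others, log2 ratios of 3.63 (3.54 to 3.71) and 3.73 (3.61 to 3.86). It was uneven, with 0 to 411 (median 7) and 0 to 342 (median 0) UMIs per member and a UMI in 19 and 24 of them. The monocyte attractants Ccl7 (2.39 and 1.80) and Ccl2 (1.33 and 1.14) and the myeloid chemokines Ccl6 (1.84 and 1.56) and Ccl9 (1.96 and 1.65) were also higher. The T cell attractants were lower, Ccl5 at -1.81 and -1.47 and Cxcl9 at -2.75 and -3.99, with Cxcl9 in 2 and 1 members, and Ccl17, a CCR4 ligand, had 0 UMIs against 7.55 and 3.52 CPM in the others, which 3 UMIs of the members would exceed. Of 5 measured neutrophil attractants 0 passed 2-fold, among them Cxcl1 (0.34 and 0.07) and Cxcl2 (0.21 and -0.01). Not all attractants of a cell type went together: the monocyte attractant Ccl12 was at -0.07 and -0.29, and Cxcl10, which attracts T cells, was at -0.19 and -1.06.

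Genes of uptake gave 4 higher and 1 lower of 16 measured in the dead cell and complement list, and 2 higher and 1 lower of 15 in the scavenger list. Pros1, protein S and like Gas6 a bridging ligand, was higher (2.73 and 1.59), as was the complement gene C4b (1.15 and 1.26). The receptors of Gas6 and Pros1 did not go with them. Axl was lower at 80.5 and 86.8 CPM against 227.0 and 202.3 CPM, log2 ratios of -1.50 (-2.16 to -0.90) and -1.22 (-1.66 to -0.81), and Mertk was at 0.17 and 0.65. Stab1, a scavenger receptor of vessel-lining and resident cells, was higher (1.76 and 1.67). Fcgr4, an activating IgG receptor, was lower (-1.19 and -1.01).

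In the heme list 2 of 11 were higher, Hmox1 and the iron reductase gene Steap3 (2.89 and 1.18), and 1 lower, Cp, ceruloplasmin (-1.22 and -1.40 from 4 and 3 UMIs, with intervals that reach 0, and 1.60 in 4T1p without upper limits on genes and UMIs). Hmox1, heme oxygenase, which acts downstream of CD163, was at 1.10 and 1.31. In 4T1p 1 member held 56.6% of its UMIs, without it the ratio was -0.06, and it was -0.29 at a mitochondrial limit of 5%. Pltp, which moves phospholipids between lipoproteins, was at 2.57 and 2.89, the only higher gene of 15 measured for lipid handling. Maf, which holds macrophages in a resident state, was the only higher one of 24 transcription factors, at 651 and 492.8 CPM against 154.4 and 188.1 CPM, log2 ratios of 2.08 (1.83 to 2.31) and 1.39 (1.20 to 1.58). Il10, the suppressive cytokine, was at 1.72 and 1.20 and had a UMI in 11 and 29 members.

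Growth factor genes were higher for 4 of 16 and lower for 0. Beside Igf1 these were Hbegf, an EGF receptor ligand (2.09 and 1.03), Pdgfc (2.14 and 2.08) and Bmp2 (1.84 and 3.60). Bmp2 had 71.4% of its 7 UMIs in 4T1p and 70.2% of its 47 in 4T1m in 1 member each, and stood at 0.10 and 1.90 without these. Of the matrix list 2 of 19 were higher, the protease inhibitors Timp1 (3.36 and 2.22) and Timp2 (1.55 and 1.69), and 3 were lower. These were Mmp12, macrophage elastase (-1.72 and -1.25), Sdc1, a heparan sulfate proteoglycan (0.79 in 4T1p without upper limits on genes and UMIs), and Adamdec1, a protease with 1 and 0 UMIs in members against 346 and 208 in the others. The lysosomal protease Ctsb did not pass (0.80 and 0.64). Without the member that held most UMIs of the gene, ratios that passed 2-fold above also came within it for Pf4 (0.66 in 4T1p), C4b (0.81 and 0.98), Steap3 (0.65 in 4T1m), Ccl2 (0.93 and 0.87), Il10 (0.87 in 4T1m) and Hbegf (0.93 in 4T1m). 

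By the smaller of the 2 ratios, 20 genes outside the rule stood furthest above the others, among them Ccl8, Folr2, Clec10a, Fxyd2, Igf1, Gas6, Pltp and Timp1. Tmem8, a membrane protein gene, was first, at 157.5 and 119.7 CPM in members against 4.48 and 5.66 CPM, log2 ratios of 5.14 (4.33 to 5.99) and 4.40 (3.81 to 5.02), with a UMI in 13 and 21 members. Csf3, the granulocyte growth factor G-CSF, was second by ratio (5.73 and 3.88) but came from 2 and 5 cells, 1 of which held 80% and 72.7% of the UMIs. Its place thus rested on single cells, while that of Tmem8 did not. Rcn3, a calcium-binding protein of the endoplasmic reticulum, was at 3.87 and 3.01, Lrg1, a secreted glycoprotein that acts on TGF-beta signals in vessels, at 4.10 and 2.68 (3.55 in 4T1p without the endothelial barcode), and Stard8, a START domain protein, at 2.80 and 3.25. Wfdc17, a small secreted protein, had 3080 and 2766 CPM (2.34 and 2.39) and a UMI in 24 and 53 members. The rest were Calml4 (2.97 and 3.22), Tppp3 (2.94 and 2.65), the focal adhesion gene Tns1 (3.06 and 2.65), the protease inhibitor Serpinb6a (2.58 and 2.50), Iqgap2 (2.50 and 2.74) and Sh3bp5 (2.38 and 2.30). Fxyd2, a regulator of the sodium pump, was at 3.15 and 3.56 from 42.0 and 43.4 CPM.

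**Figure D3:**
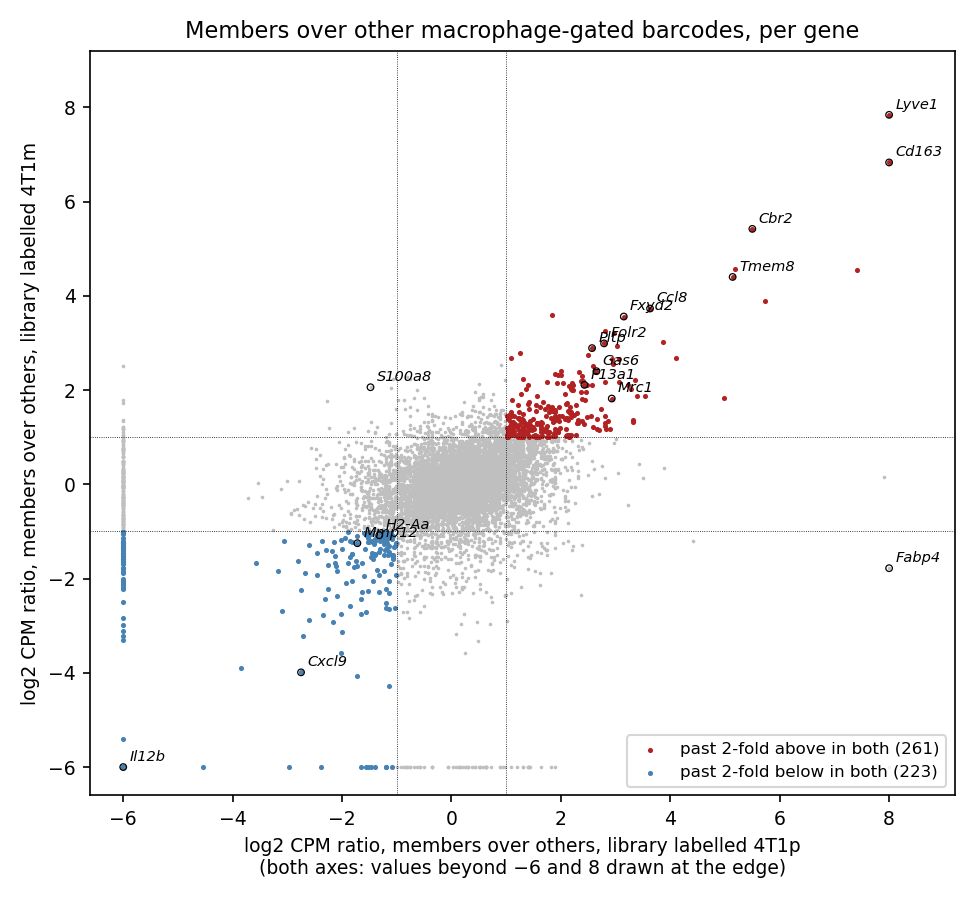
Log2 ratio of members over other macrophage-gated barcodes in 4T1p (horizontal) against 4T1m (vertical) for the 8722 tested genes, with values beyond -6 and 8 drawn at the edge. The 261 genes past 2-fold above in both libraries are red and the 223 below in both are blue.

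MHC class II genes stood lower. Of 11 measured 0 were higher and 4 lower, with median log2 ratios of -1.32 and -0.87. H2-Aa, a chain of the I-A molecule that presents peptide to CD4 T cells, ran from 0 to 147 UMIs per member (median 6.5) in 4T1p and 0 to 124 (median 2.5) in 4T1m. Its level was 2541 and 1307 CPM against 6322 and 2760 CPM, log2 ratios of -1.32 (-1.42 to -1.21) and -1.08 (-1.19 to -0.97). H2-Eb1 (-1.40 and -1.20) and the peptide loading genes H2-DMb1 (-1.31 and -1.20) and H2-DMb2 (-2.19 and -1.42) were also lower past 2-fold. H2-Ab1 (-1.50 and -0.95) and Cd74, the invariant chain (-1.46 and -0.87), passed it in 4T1p alone, and whether the libraries differed in this was not tested.

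Of 12 inflammatory genes 3 were lower and 0 higher. Il1b was at 1018 and 2098 CPM against 2391 and 4869 CPM, log2 ratios of -1.23 (-1.40 to -1.06) and -1.21 (-1.30 to -1.13). Nos2, the inducible nitric oxide synthase, was at -1.51 and -1.08 from 4 and 15 UMIs, and Il12b had 0 UMIs in members against 6.37 and 3.98 CPM in the others, which is under the floor of the members. Of 10 interferon-stimulated genes 0 were past 2-fold. Cell cycle genes were lower for 5 of 16 (Top2a, Ccna2, Mcm5, Mcm6 and Rrm2), all 5 with 0 UMIs in 4T1p members and with 0 to 3 in 4T1m members, so that few counts stood behind these calls. Top2a had 0 and 2 UMIs in members against 146 and 179 in the others. Ccna2 and Rrm2, at 6.37 and 9.90 CPM in the others of 4T1p, were under the floor of the members there. Mcm5 in 4T1m was at a log2 ratio of -1.48, but at 0.11 with barcodes thinned to 1000 UMIs before the rule. Of the Ly6 genes 1 of 5 was lower, Ly6i, also with 0 UMIs in members and under the floor. The 10 lowest genes of all (Zscan21, Zcwpw1, Uhrf1, Treml4, Pvt1 and Myh10 among them), with Ocstamp of fused macrophages and the mitotic genes Tpx2, Spc25 and Nusap1, had 0 UMIs in members of both libraries. Such genes set a bound and no fold, and 90 of the 223 lower genes were at 0 UMIs in the members of at least 1 library.

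The members were next set beside 2 other macrophage groups of the gate, each with at least 2 of 5 named genes. The genes were Cx3cr1, Cxcl9, Klrb1b, Spon1 and Olfml3 for one group and Mmp12, Il7r, Thbs1, Sdc1 and Plcb1 for the other. One was marked by Cx3cr1 and Cxcl9 genes (150 and 140 barcodes, median 15018 and 14225 UMIs) and the other by Mmp12 and Il7r genes (59 and 216 barcodes, median 11349 and 11658 UMIs). At an equal 1000 UMIs per barcode, Mrc1 was detected in 76.9% and 65.5% of members, 23.6% and 37.8% of Cx3cr1 and Cxcl9 barcodes and 7.14% and 17.4% of Mmp12 and Il7r barcodes. Folr2 was in 30.8% and 25.9% of members against 0.694% and 2.22%, and 1.79% and 0.939%. F13a1 was in 38.5% and 67.2% of members, 4.17% and 10.4% of the first group, and 17.9% and 24.9% of the second. All 3 genes were in a larger share of members than of either group. Mrc1 was also frequent in the Cx3cr1 and Cxcl9 barcodes and F13a1 in the Mmp12 and Il7r barcodes, while Folr2 was rare in both.

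The MHC class II gene H2-Aa was in 50% and 34.5% of members, 95.1% and 86.7% of Cx3cr1 and Cxcl9 barcodes and 67.9% and 47.4% of Mmp12 and Il7r barcodes. Ccl8 was in 57.7% and 31.0% of members, 25% and 17.0% of the first group, and 1.79% and 1.88% of the second. Sepp1 was in 76.9% and 65.5%, then 41.0% and 39.3%, then 16.1% and 17.4%. Some members carried the other groups' genes too: 4 of 26 and 19 of 58 had at least 2 of the Mmp12 and Il7r genes, 4 and 5 had at least 2 of the Cx3cr1 and Cxcl9 genes, and 19 and 35 had neither.

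Within the group, members with more markers differed from those at the edge. Of those with exactly 2 markers, 3 of 11 (4T1p) and 15 of 34 (4T1m) had at least 2 Mmp12 and Il7r genes, and of those with 3 or more, 1 of 15 and 4 of 24. Mrc1 was at 3010 and 2306 CPM in members with 3 or more markers, and at 525.5 and 918.5 CPM in members with exactly 2. Gas6 followed at 456 and 414 CPM against 175 and 139 CPM, and Ccl8 at 8686 and 3353 CPM against 3719 and 894 CPM. Without the top member of each group, Ccl8 was at 6879 and 2116 CPM against 1846 and 390.1 CPM. Ccl24, an eosinophil attractant of the resident list, went the other way, with log2 ratios of -4.12 and -1.03 for 3 or more markers over exactly 2. Without the top member of each group, Ccl24 was at 48.7 and 186.6 CPM against 612.2 and 300.1 CPM, which is within 2-fold in 4T1m.

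Some other genes were higher in members with exactly 2 markers. Spp1, osteopontin, was at 343.5 and 284.1 CPM with 3 or more markers and at 1792 and 2686 CPM with exactly 2, and Il1b at 768 and 982 CPM against 1338 and 2931 CPM. Single cells weighed on these levels in 4T1p: 1 member held 85.5% of the Spp1 UMIs with 3 or more markers and another 52.0% of those with 2, and the levels without them were 59.2 and 939 CPM. Mmp12 had 2 and 3 UMIs in all members with 3 or more markers and 75 and 257 in those with 2, of which 1 member of each library held 58 and 118. Cxcl9 had 0 and 0 UMIs against 11 and 4, of which 1 member of each library held 10 and 4. H2-Aa was at 1836 and 812 CPM against 3440 and 1676 CPM.

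**Figure D4:**
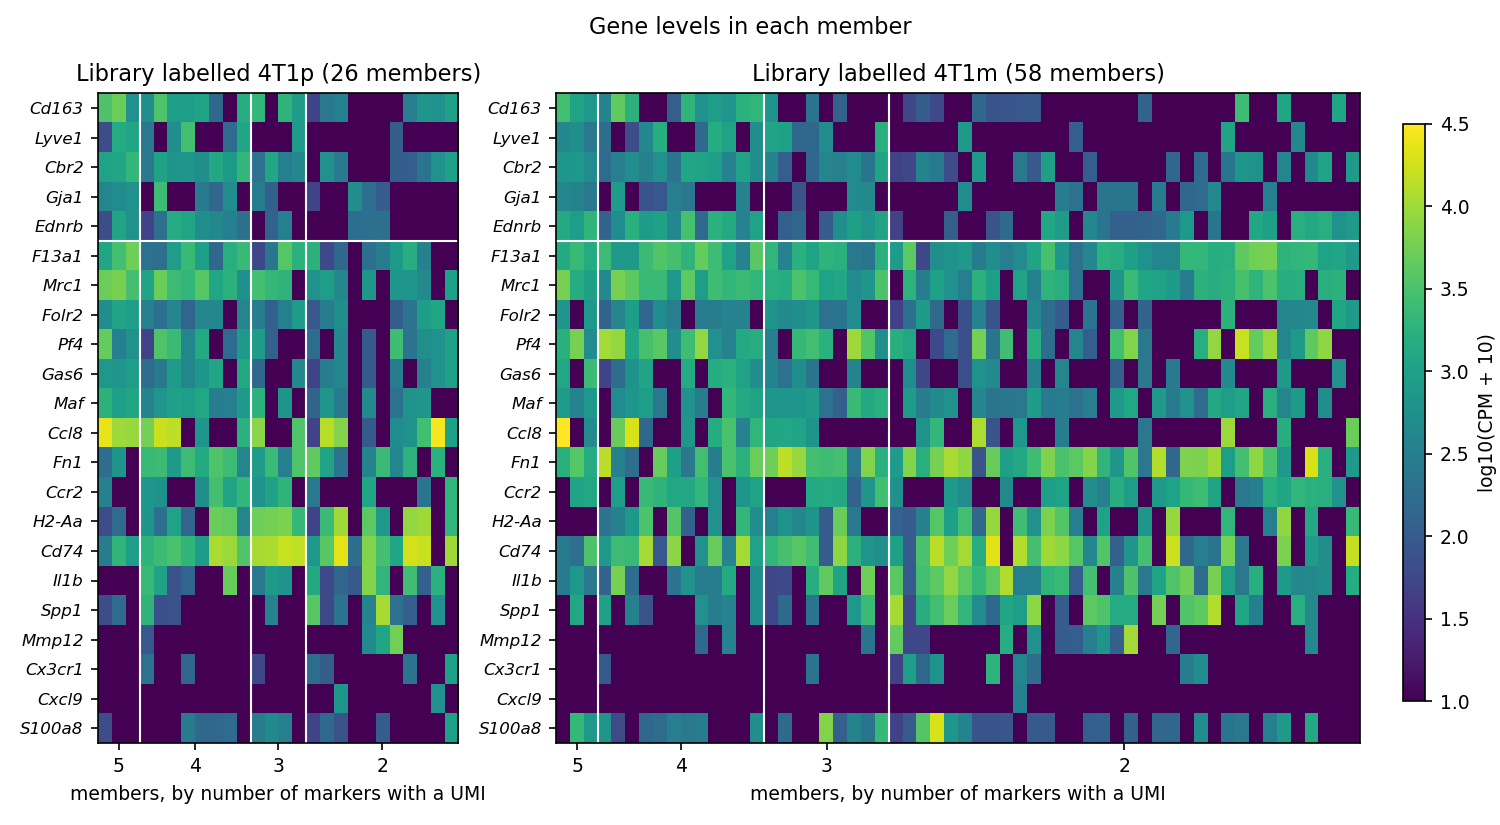
Log10(CPM + 10) of 22 genes (rows) in each of the 84 members (columns), grouped by library and by the number of markers with a UMI. Mrc1 and Ccl8 are higher in members with 3 or more markers (Mrc1 3010 and 2306 CPM, against 525.5 and 918.5 CPM with 2), and Spp1 in members with 2 (1792 and 2686 CPM, against 343.5 and 284.1 CPM).

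The pair of markers that brought a member in also mattered. These groups were formed after the patterns were seen, and the endothelial barcode was left out. Members with Cd163 and Cbr2 alone (6 and 8) had Ccl8 at 8051 and 2193 CPM (5107 and 716.8 CPM without the top member), H2-Aa at 6599 and 1352 CPM, and Folr2 at 455 and 320 CPM, and Ccr2 in 2 of 6 and 2 of 8 (70.0 and 36.6 CPM). Those with Gja1 and Ednrb alone (2 and 8) had Ccl8 at 45.8 and 49.3 CPM and Folr2 at 0 and 32.9 CPM, but Mmp12 at 778 and 1711 CPM (445 and 155 CPM without the top member), Spp1 at 5536 and 3076 CPM (356 and 2297 CPM without it), and Ccr2 at 595 and 1102 CPM, in 1 of 2 cells of 4T1p and 8 of 8 of 4T1m. The 9 members of 4T1m with Cbr2 and Ednrb alone had Ccl8 at 84.5 CPM, Mmp12 at 1485 CPM (87.8 CPM without the member that held 118 of its 123 UMIs) and Ccr2 at 736 CPM. Mmp12 in these groups came mostly from 1 member each. H2-Aa in the Cd163 and Cbr2 members of 4T1p was at 5436 CPM without the top member, against 6322 CPM in the other gated barcodes. Members with 3 or more markers had Ccr2 at 649 and 739 CPM and Mmp12 at 12.49 and 12.18 CPM, so that Ccr2 was carried by resident-marked cells as well. In Mmp12 and Il7r barcodes, for comparison, Mmp12 was at 2715 and 1835 CPM and Ccl8 at 68.5 and 68.4 CPM.

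The libraries were compared within the members, for 2679 genes with at least 50 UMIs in the 2 libraries together. Of these 182 (6.79%) were past 2-fold higher in 4T1m and 56 (2.09%) past 2-fold lower, and the median log2 ratio over all was 0.01. All of these calls had intervals off 0, but with at least 50 UMIs a ratio past 2-fold has such an interval almost by construction. That therefore adds nothing to the calls. With members of 3 or more markers the counts were 67 and 36. With barcodes thinned to 1000 UMIs before the rule they were 47 and 38. The value in the other gated barcodes is given beside many of the genes below, since members and others come from the same 2 libraries. Of the 182 higher genes 86 passed 2-fold the same way in the other gated barcodes, and of the 56 lower genes 9 did. Neither the tumor cells, the mice nor the run can be told apart from the library here.

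Among genes higher in 4T1m members, Thbs1, thrombospondin 1, a matrix protein that binds CD47, was at 354 against 38.5 CPM, log2 ratio 3.20 (2.33 to 4.23), in 26 and 6 cells. In the other gated barcodes the ratio was 3.48. Ratios of like size in members and others were also seen for Vcan, versican, at 246.4 against 28.0 CPM, 3.14 (2.12 to 4.38; others 3.08), and for Cxcl3, a CXCR2 ligand, at 1244 against 213.5 CPM, 2.54 (2.16 to 2.94; others 2.22). Fn1, fibronectin, was at 4500 against 1512 CPM, 1.57 (1.43 to 1.72; others 0.99), with 0 to 336 UMIs per member (median 20) and 0 to 111 (median 9). Of 5 neutrophil attractants 3 were higher, with a list median of 1.08: Cxcl3, Cxcl1 (1.08) and Ccl3 (1.09, others 0.15). Ccl3 was at 0.66 without the top members, -0.56 with 3 or more markers and -0.37 with 2 of Cd163, Lyve1 and Cbr2. The neutrophil genes of the gate stood at 283.5 CPM in 4T1p members and 2662 CPM in 4T1m members. Single-gene values were also recomputed without the members richest in neutrophil UMIs, and the next paragraph gives how many moved. What part neutrophil transcripts had in these ratios was not tested further. Of 8 inflammatory genes 3 were higher with a list median of 0.85: Il1a (1.34), Il1b (1.04, others 1.03, and 0.99 without the endothelial barcode) and Ptgs2, cyclooxygenase 2 (1.21, others 2.06). Among members with 3 or more markers, of whom 4T1m held 24 of 58 and 4T1p 15 of 26, Il1b was at 0.35 and Ptgs2 at -1.40.

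Other genes had larger ratios in members than in the rest, a difference that was not tested. Lsp1, a leukocyte actin-binding protein, had 74 UMIs in 21 members of 4T1m and 3 UMIs in 3 members of 4T1p, 3.61 (2.01 to 5.92; others 0.17). Mmp9, gelatinase B, had 53 UMIs in 7 cells against 1 (4.72, others 1.53), with 47% in 1 member. The long noncoding RNA Gm26870 (3.74, others 2.65, but -0.61 at a mitochondrial limit of 5%), Trem1, an amplifier of myeloid inflammation (2.77, others 0.79), Rasgef1b (2.80, others 1.09), Vegfa, the endothelial growth factor (1.76, others 0.69, but -0.04 with 3 or more markers), Nr4a1 (1.33, others 0.01) and Pf4 (1.35, others 0.67) were also higher. S100a8 had 24 UMIs in 4T1p and 635 in 4T1m members, 60.6% of these in 1 member, in step with the neutrophil UMIs given above. Neutrophils also make Lsp1, Mmp9 and Trem1. Without the 10 members with neutrophil UMIs above 10% of the macrophage UMIs, 144 genes were higher in 4T1m and 41 lower. Of the single-gene values recomputed without those members (members over others and 4T1m over 4T1p), 147 stayed close to the value reported, 9 moved and 0 changed sign. Those 10 members were all of 4T1m, so 4T1p values of members over others could not change and are among the 147. The counts thus say little about single genes such as Lsp1, Mmp9 and Trem1. What part neutrophil transcripts had in these ratios was not tested further.

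Lower in 4T1m members were 5 genes of the endothelial barcode: Fabp4 (215 and 1 UMIs), Igfbp7 (184 and 0), Cxcl12 (63 and 0), Plvap (50 and 0) and Sparc (87 and 5, log2 ratio -5.13, and 0.25 without that barcode). Apart from it, the metallothionein Mt2 was at 123 against 539 CPM, -2.13 (-2.56 to -1.71; others 0.21) but 0.50 at a mitochondrial limit of 5%, and the heat shock gene Hspa1b at 267 against 906.5 CPM, -1.76 (-2.06 to -1.47; others -0.35). Ccl8 was at -1.74 (-1.85 to -1.63), close to -1.85 in the other barcodes. Of 6 interferon-stimulated genes 2 were lower with a list median of -0.78, among them Oasl2 (-1.23). The 10 genes of that list summed to 1697 and 1074 CPM in members, and to 4665 and 1314 CPM in neutrophil-gated barcodes. The interferon-induced chemokine Cxcl10 was at -1.27 (-1.65 to -0.90; others -0.40; -0.73 without the top member of each library). Retnla, the alternative activation gene RELM-alpha, was at -2.25 (others 5.49), from 6 and 3 cells with 68.0% of the 4T1p UMIs in 1, and at 2.07 among members with exactly 2 markers. Rcn3 (-1.77, others -0.91) and H2-DMb1 (-1.24) were lower too. Id3 was at -1.62, but at -0.68 without the endothelial barcode and 0.30 with 3 or more markers. The resident gene list as a whole had a median of -0.09, with 2 of 11 higher and 0 lower.

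**Figure D5:**
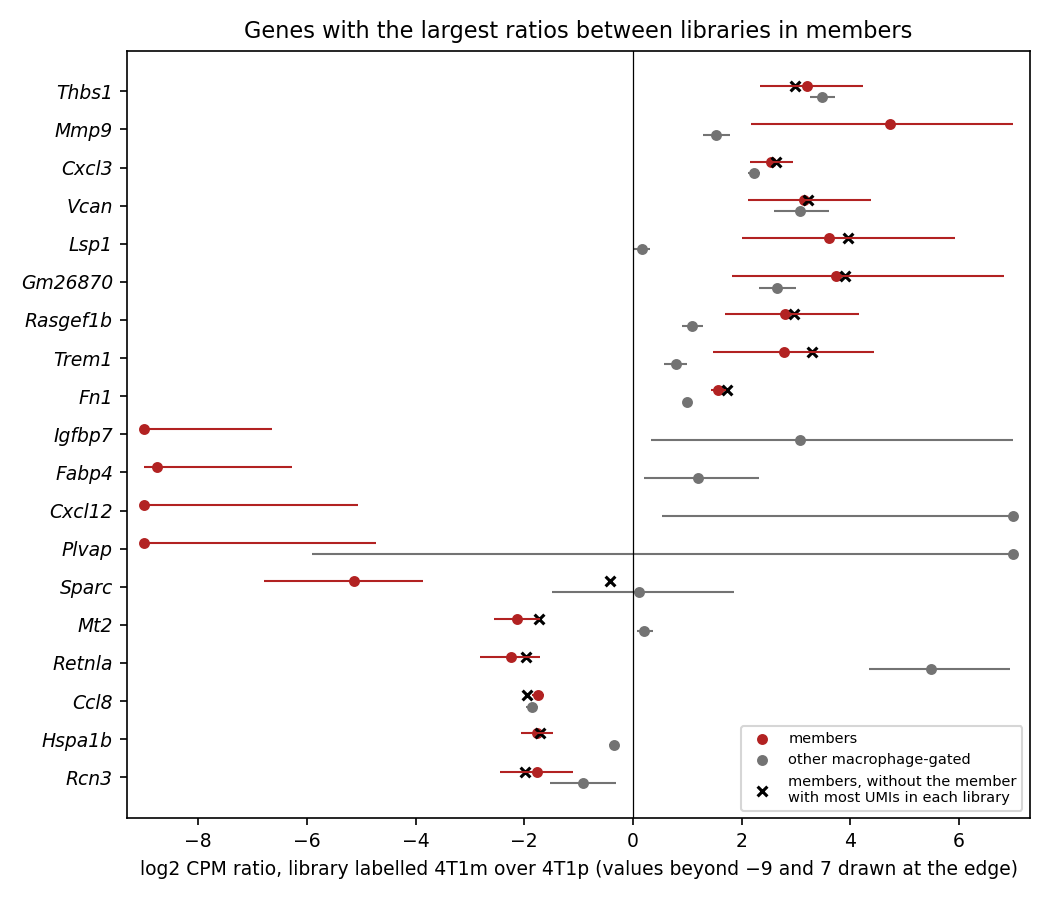
Log2 ratio of 4T1m over 4T1p for 19 genes in members (with 95% counting intervals), in other macrophage-gated barcodes and in members without the one holding most UMIs of the gene, with values beyond -9 and 7 at the edge. Thbs1 reads 3.20 in members and 3.48 in the others, and Mt2 -2.13 and 0.21 (0.50 in members at a mitochondrial limit of 5%).

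Partner genes of the markers were mostly under the minimum. Of 18 listed for hyaluronan, endothelin and gap junctions 6 were measured against the other barcodes, 1 higher and 0 lower. That gene was Tmem2, a cell surface hyaluronidase, at 2.09 and 1.18. Edn1, the endothelin that binds EDNRB, had 2 and 22 UMIs in members, its other receptor gene Ednra had 0, and Ece1, the endothelin-converting enzyme, had 27 and 31.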

How the data were processed

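The authors deposited a filtered matrix of raw counts (UMIs of each gene in each barcode) for both tumor libraries, made by Cell Ranger against the mouse build GRCm38 (mm10); the matrix header names version 3.1.0. Genes go by symbol (28692 listed, 58 symbols repeated). Counts were summed over the members of each library, divided by their total UMIs to give CPM, and compared as log2 ratios. Members over others used a minimum of 20 UMIs in each library, and 4T1m over 4T1p 50 UMIs in both together. The members, gene lists and tests were chosen with earlier results of these data known. Named genes were the rule's markers, the 20 genes furthest above and 10 furthest below the others by the smaller log2 ratio, the 10 at each end between libraries by the interval bound nearest 0 (mitochondrial and ribosomal genes and Xist left out), and listed genes past 2-fold; others named (Mertk, Ptprc, Pdpn, partner genes, values of the subgroups) were chosen after their values were seen. Lists covered resident genes, scavenger receptors, dead cell uptake and complement, heme, MHC class II, cytokines, chemokines, alternative activation (2 of 12 measured higher and 0 lower in members), interferon, growth factors, transcription factors, matrix, lipids, cell cycle, marker partners and Ly6 genes (0 higher and 1 lower of 5), and other cell types. Alternatives changed the rule, the limits, the scaling and the minimum. No doublets were removed. Code was tested on simulated data. TMM factors came from edgeR 4.0.16 in R 4.3.3 and doublet scores from Scrublet in scanpy 1.11.5; other steps ran in Python 3.11.15 with scipy 1.17.1 (intervals), numpy 2.4.6, pandas 2.3.3 and matplotlib 3.10.9. Gene places are of GENCODE; promoters are of RefSeq. Flow cytometry, other tumors, bone marrow and human data were not analysed here. A few genes that the naming rule picks are not reported here, though the counts of lists include them.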

Additional observations from a re-analysis of the deposited data

Results flagged for a closer look

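For 7 genes reported here the members stood past 2-fold above the other gated barcodes in 1 library and past 2-fold below in the other, with the difference between libraries not tested. Foxo1, a transcription factor, was at log2 ratios of 1.57 in 4T1p and -1.43 in 4T1m. The neutrophil genes S100a8 (-1.48 and 2.06) and S100a9 (-1.10 and 2.04) were part of the gate. Without the member with most UMIs of the gene, S100a8 was at 0.76 and S100a9 at 0.96 in 4T1m. Pecam1 (1.26 and -1.24), an endothelial and myeloid gene with 15 and 8 UMIs in members, had 10 of its 4T1p UMIs in the endothelial barcode and was at -0.27 in 4T1p without it, so that the directions were no longer opposite. Uba6 (1.31 and -1.07), Map4k3 (1.46 and -1.50) and Carnmt1 (1.29 and -1.21) were the others.

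Some barcodes that the limits removed would otherwise have been members. Above the limit on genes or UMIs these were 4 of 53 otherwise gated barcodes in 4T1p (7.55%) and 7 of 48 in 4T1m (14.6%), and above the mitochondrial limit 3 of 166 (1.81%) and 13 of 237 (5.49%).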

How the results depend on the processing

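With 1 library per condition the spread between animals is unknown, and no paired analysis was possible because each group is 1 library. Of 88 alternative values of shares and counts 53 stayed close to the value reported and 35 moved; of 2333 values of single genes 1813 stayed, 496 moved and 24 changed sign. The cause was not tested beyond what each alternative changes. Shares are of gated barcodes (4T1p, then 4T1m); counts are genes higher and lower in members than in others, then higher and lower in 4T1m members. With at least 3 markers the shares were 1.93% and 2.62% and the counts 433, 561, 67 and 36; with 2 of Cd163, Lyve1 and Cbr2, 3.28% in 4T1m, 358 lower than others and 91 higher in 4T1m. Thinning to 1000 UMIs before the rule gave 1.97% and 2.96%, 485, 749, and 47 higher in 4T1m. Requiring a Ptprc UMI gave 6.60% and 8.62%, and barcodes of at least 5000 UMIs (added after seeing the data) 8.57% and 8.73%. Without upper limits 343 genes were higher and 134 lower in 4T1m; at 5% mitochondrial UMIs, 4.64% in 4T1m and 115 higher. TMM gave 162 and 341, and the mean of per-cell CPM 629 and 488, with 105 lower in 4T1m. With no minimum the counts were 545, 1874, 2512 and 2579, and with minima of 100 and 50 UMIs 153, 105, 69 and 21.

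Sign changes of 4T1m over 4T1p in members, as log2 ratios, were these. With 3 markers: Sparc 1.70, Ptgs2 -1.40, Ccl3 -0.56, Vegfa -0.04 and Id3 0.30. With 2 of Cd163, Lyve1 and Cbr2: Sparc 0.72, Ptgs2 -1.04 and Ccl3 -0.37. Thinned: Sparc 1.61 and Bmp2 -0.30. With Ptprc: Sparc 0.22. At 5% mitochondrial UMIs: Gm26870 -0.61, Mt2 0.50 and Bmp2 -0.88. With at least 10 macrophage UMIs, and without the endothelial barcode (added after seeing the data): Sparc 0.25. Without the deepest 10% of members: Bmp2 -0.30. With exactly 2 markers (added): Retnla 2.07. Those of members over others were Mcm5 0.11 in 4T1m when thinned, and in 4T1p Sdc1 0.79 and Cp 1.60 without upper limits, Hmox1 -0.29 at 5% mitochondrial UMIs and -0.06 without its top member (added), and Cp 0.19 by mean CPM.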
